A study of Homo sapiens with 4 samples.

Results

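The genes described here are 44 genes of the G1/S transition and DNA replication in TK6 cells, a human lymphoblastoid line grown in suspension. They were taken by symbol from a list of such genes, all 44 were in the expression table of 11415 genes, and they fall into licensing of replication origins (16 genes), the replication fork (22), nucleotide supply (3) and regulators of the G1/S transition (3). RNA-seq libraries were made from cells under simulated microgravity (2 libraries), rotated at 12 rpm in High Aspect Ratio Vessels, and from static control cells kept in the same vessels without rotation (2 libraries). The starting density was 200000 cells per ml and the culture time 48 hours in both conditions, and all cells carried the heterozygous thymidine kinase locus of the line. Rotation and the reduced gravity vector it is meant to mimic cannot be told apart, since no rotated control was among these samples. The study calls the replicates of its methylation libraries biological, but for the RNA libraries the sources used here do not say whether they were prepared from different cultures, so every p-value reflects library-to-library spread alone, which may be technical.

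DNA replication is licensed in G1, when the origin recognition complex, CDC6 and CDT1 load the ring-shaped MCM2 to MCM7 helicase onto origins, and it starts in S phase when CDC45 and the GINS complex turn the loaded ring into an active helicase. At the fork, primase and DNA polymerase alpha lay down primers, the RFC complex loads the PCNA clamp, polymerases delta and epsilon copy the strands, and FEN1 and LIG1 join the fragments of the lagging strand. Many of these genes are transcribed at the G1/S boundary by E2F factors. Cyclin-dependent kinases, among them that of cyclin E, release these factors from the retinoblastoma protein. Proliferating lymphoblastoid cultures are known to hold the products of such genes at high levels.

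The promoters of these genes are shown because E2F control is the feature by which the set is best known. RefSeq promoters of build GRCh38.p14 were matched by symbol for 39 of the 44 genes (not for MCM4, MCM5, GINS4, POLD3 and CCNE2), each covering 250 bases before to 50 after a transcript start. The window printed runs from 120 bases before to 30 after the start, 5′ to 3′ on the strand of the gene, and capitals mark every match to the E2F motif. ORC1 is included as the gene with the smallest p and no match, and POLE as the gene whose test depended on which library was used.
E2F1, chr20:33686356-33686505, minus strand: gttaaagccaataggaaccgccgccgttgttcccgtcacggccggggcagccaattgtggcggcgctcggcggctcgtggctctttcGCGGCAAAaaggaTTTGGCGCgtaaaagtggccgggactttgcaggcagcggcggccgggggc
MCM2, chr3:127598291-127598440, plus strand: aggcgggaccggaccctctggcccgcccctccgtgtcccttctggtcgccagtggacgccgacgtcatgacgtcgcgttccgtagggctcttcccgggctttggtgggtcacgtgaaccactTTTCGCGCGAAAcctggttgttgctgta
MCM6, chr2:135876414-135876563, minus strand: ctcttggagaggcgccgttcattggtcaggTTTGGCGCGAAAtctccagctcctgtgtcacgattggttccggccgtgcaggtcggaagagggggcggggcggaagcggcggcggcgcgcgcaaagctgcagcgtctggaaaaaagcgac
CDC6, chr17:40287759-40287908, plus strand: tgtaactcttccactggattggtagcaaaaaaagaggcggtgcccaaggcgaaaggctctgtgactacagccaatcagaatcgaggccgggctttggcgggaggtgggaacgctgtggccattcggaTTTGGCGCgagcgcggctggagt
PCNA, chr20:5126593-5126742, minus strand: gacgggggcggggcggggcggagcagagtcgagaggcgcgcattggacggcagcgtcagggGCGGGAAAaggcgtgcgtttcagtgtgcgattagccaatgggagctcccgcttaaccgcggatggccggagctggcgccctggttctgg
POLE, chr12:132687313-132687462, minus strand: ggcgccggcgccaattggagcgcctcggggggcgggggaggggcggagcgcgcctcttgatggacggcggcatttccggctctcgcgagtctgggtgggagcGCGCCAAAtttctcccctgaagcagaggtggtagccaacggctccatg
TYMS, chr18:657533-657682, plus strand: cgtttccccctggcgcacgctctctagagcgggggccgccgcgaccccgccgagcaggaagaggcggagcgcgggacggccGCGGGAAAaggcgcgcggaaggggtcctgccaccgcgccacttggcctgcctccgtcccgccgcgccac
ORC1, chr1:52404394-52404543, minus strand: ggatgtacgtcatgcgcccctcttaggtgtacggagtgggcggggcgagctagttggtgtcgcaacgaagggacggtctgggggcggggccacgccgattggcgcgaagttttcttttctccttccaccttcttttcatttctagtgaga
The motif was spelled TTTCCCGC, TTTGGCGC, TTTCGCGC or TTTGCCGC and searched on both strands, with overlapping matches counted. In the full promoters it was present in at least 1 start of 20 of the 39 genes (51.3%), against 3.99% of all 27305 genes with a promoter and 7.08% of the 8178 of them that were tested here. It was present in 8 of 14 licensing genes, 10 of 20 fork genes, 1 of 3 nucleotide supply genes (TYMS) and 1 of 2 G1/S regulators (E2F1). The CCAAT box, searched as CCAAT on both strands, which does not contain the E2F motif but can share end bases with it, was found in 23 of the 39 genes (59.0%), against 44.3% of the genes tested. A match describes letters in the window and not a bound site. Only these 4 exact spellings were searched, so a promoter without a match, such as that of ORC1, may still hold an E2F site. The median log2 fold change in the expression data was −0.03 over the 20 genes with an E2F match and −0.04 over the 19 without.

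No member of the set passed the test in either direction under simulated microgravity. Of the 44 genes, 0 passed a false discovery rate (FDR) of 0.1 in edgeR's quasi-likelihood test with Benjamini-Hochberg adjustment over all genes, against 126 of 11415 genes (1.1%) in the whole table, 0.867% lower and 0.237% higher. DESeq2 and limma-voom, run on the same counts, also called 0 of the 44, and their shares over all genes are not given here. A share of 1.1% is small for a list of 44 genes, so the count of 0 is not read as a trait of the set. At an unadjusted p under 0.05 there were 2 members, ORC1 and POLD3, where 8.08% of all genes reached that level. The log2 fold changes of simulated microgravity over static control ran from −0.18 to 0.07, with a median of −0.03 beside 0.00 over all genes, and 29 were negative and 15 positive, where 49.8% of all genes were negative. With simulated microgravity replicate 1 left out, the median of the 44 genes became 0.029, and with replicate 2 left out it became −0.075. Because RNA was taken from the whole culture, fewer cells in a stage of the cycle and less RNA per cell cannot be told apart.

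The intervals of these genes were narrow. The 95% interval of the fold change, not adjusted for the number of genes, lay within 1.25-fold in either direction for 43 of the 44 genes (97.7%), against 69.7% of all genes, the exception being ORC1. It lay within 1.2-fold for 35 genes and within 1.3-fold for all 44, and the bounds farthest from 0 were −0.33 for ORC1 and 0.24 for E2F1 on the log2 scale. Each gene had between 1405 and 38833 counts in a library, and the standard error of the log2 fold change was 0.08 at the median. The mean count of a gene was 6368 at the median of the members and 2103 at the median of all genes. The part of this difference in counts in the narrower intervals was not tested. An exact permutation test of a single gene in 2 against 2 libraries cannot give a two-sided p below 0.333, so the fit across all genes was used throughout.

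**Figure D1:**
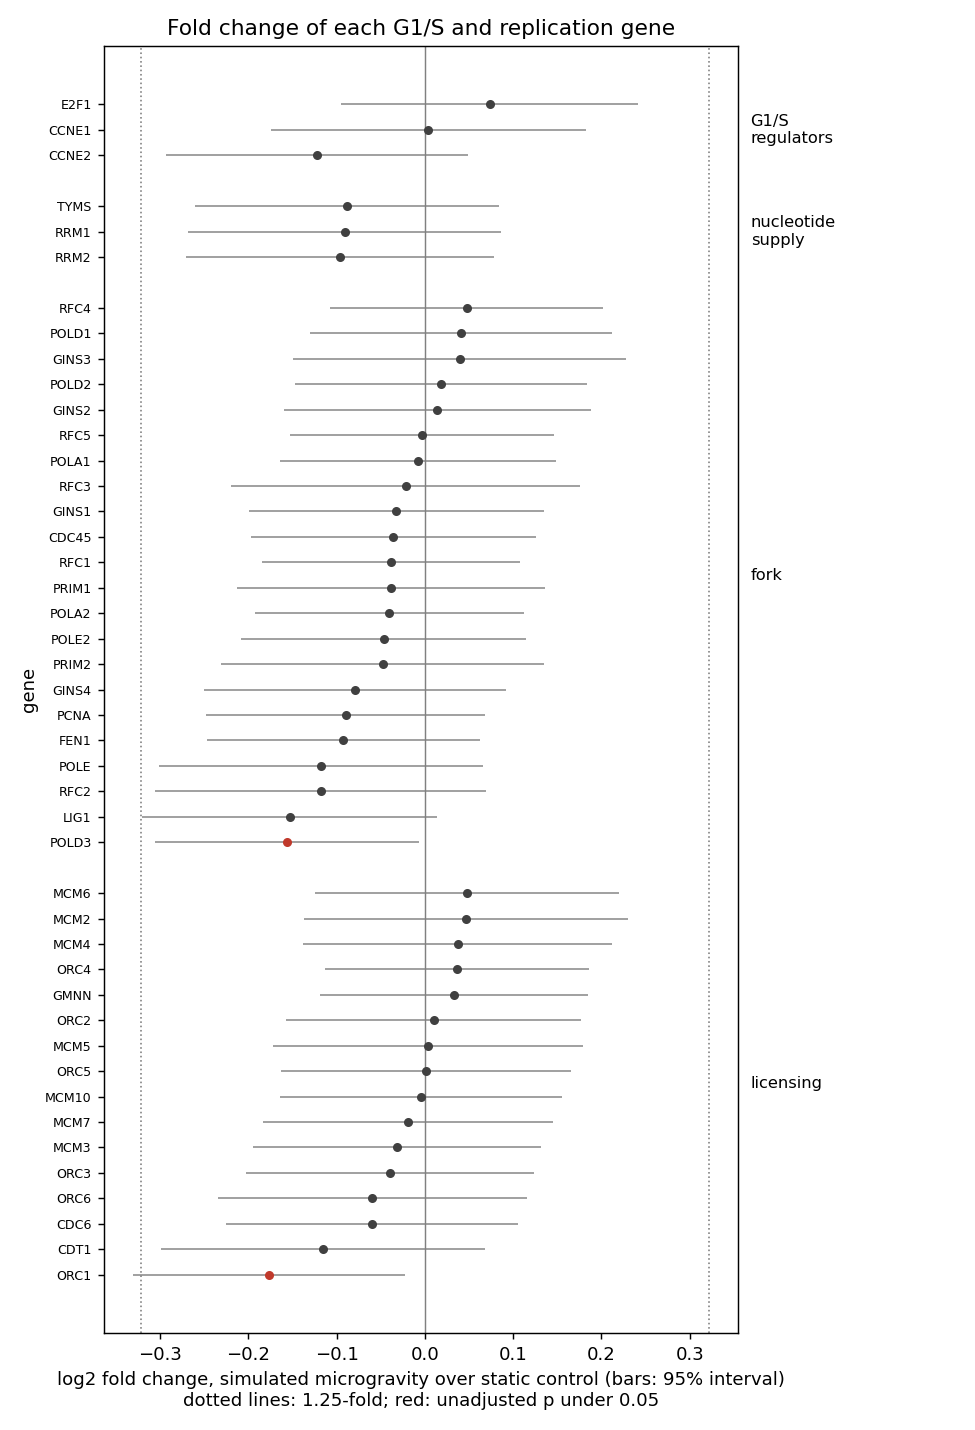
Log2 fold change of each of the 44 genes, simulated microgravity over static control, by role, with the unadjusted 95% interval of the edgeR fit as bars and dotted lines at 1.25-fold. All points lie between −0.18 and 0.07, and the intervals of ORC1 and POLD3, in red, are the 2 that do not hold 0.

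Levels are given as CPM, that is, read counts normalised to library size, with the library sizes scaled by the trimmed mean of M-values (TMM) over 1 transcript record per gene. Among the licensing genes, ORC1 encodes the large ATPase subunit of the origin recognition complex, and it lies on the minus strand of chromosome 1 (hg19, 52838501 to 52870143). ORC1 stood at 79.6 and 82.4 CPM in simulated microgravity replicates 1 and 2, and at 92.0 and 91.0 CPM in static control replicates 1 and 2. Both simulated microgravity libraries were therefore below both static control libraries, and the means were 81.0 ± 1.97 and 91.5 ± 0.715 CPM (SD, n = 2 each). The log2 fold change was −0.18 (SE 0.07), a difference of −11.5%, with an unadjusted p of 0.0274 and an adjusted p of 0.515 in edgeR's quasi-likelihood test. This was the smallest p among the 44 genes and did not pass. The other subunits, ORC2 to ORC6, had log2 fold changes from −0.06 (ORC6) to 0.04 (ORC4). ORC4, at 107 and 106 CPM against 102 and 106, was higher in both simulated microgravity libraries by a margin smaller than the gap between the static control libraries.

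CDC6 and CDT1 are the loading factors that bring the MCM ring to the origin, and geminin (GMNN) is the inhibitor that binds CDT1 after S phase has begun. CDC6 was at 90.9 and 104 CPM under simulated microgravity and at 100.3 and 103 CPM in static control (log2 fold change −0.06, SE 0.08). CDT1 was at 24.8 and 27.3 CPM against 29.6 and 26.9 CPM, a log2 fold change of −0.12 (SE 0.09, adjusted p 0.854 in the edgeR fit). The conditions overlapped for both loading factors, and for each the lowest value was in simulated microgravity replicate 1. GMNN was at 111 and 118 CPM against 110.1 and 114 CPM, a log2 fold change of 0.03 (SE 0.07). MCM10, which acts when the helicase is activated, had a log2 fold change within 0.01 of 0, and its mean was 77.2 ± 4.11 CPM against 77.4 ± 0.697 CPM (SD, n = 2 each).

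The MCM2 to MCM7 genes encode the subunits of the replicative helicase, and none of them separated the conditions. MCM2 (251 and 282 CPM under simulated microgravity, 262 and 254 CPM in static control) and MCM6 (197 and 219.9 CPM, 198 and 205 CPM) had the most positive log2 fold changes of the licensing genes, each 0.05. In both, simulated microgravity replicate 1 was the lowest of the 4 libraries and replicate 2 the highest. MCM4 showed the same order of extremes, at 415 and 463 CPM against 421 and 434 CPM, with a log2 fold change of 0.04. MCM3 was at 507 and 514 CPM against 535 and 508 CPM, and MCM7 at 551 and 606 CPM against 595 and 576 CPM, with log2 fold changes of −0.03 and −0.02. MCM5 was at 192 and 208 CPM against 211 and 188 CPM, with a log2 fold change of 0.00 (SE 0.08, 95% interval −0.17 to 0.18). Over the 6 ring genes the median log2 fold change was 0.02, and simulated microgravity replicate 1 was below replicate 2 in 6 of 6. Their adjusted p-values in the edgeR fit were all 0.980 or higher.

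Among the fork genes, POLD3 encodes an accessory subunit of DNA polymerase delta, on the plus strand of chromosome 11 (hg19, 74303650 to 74354105). POLD3 stood at 97.2 and 96.4 CPM under simulated microgravity and at 107 and 109 CPM in static control. The 2 conditions did not overlap, and the libraries of a condition lay closer to each other than the conditions did. The log2 fold change was −0.16 (SE 0.07), with an unadjusted p of 0.0422 and an adjusted p of 0.582 in edgeR's quasi-likelihood test. LIG1, the ligase that seals lagging-strand fragments, was at 99.0 and 95.5 CPM against 116 and 100.5 CPM. The static control libraries differed more from each other here than simulated microgravity replicate 1 did from static control replicate 2, and the log2 fold change of −0.15 (SE 0.08) had an adjusted p of 0.693 in the edgeR fit. FEN1, the nuclease that trims the fragments before ligation, had a log2 fold change of −0.09.

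PCNA, the sliding clamp that holds the polymerases on DNA, was at 559 and 588 CPM under simulated microgravity and 616 and 604 CPM in static control. Both simulated microgravity libraries were lower, and the log2 fold change was −0.09 (SE 0.07, adjusted p 0.886 in the edgeR fit). The clamp loader genes RFC1 to RFC5 had log2 fold changes from −0.12 (RFC2) to 0.05 (RFC4). RFC4, at 182 and 175 CPM against 173 and 173 CPM, and POLD1, the catalytic subunit of polymerase delta, at 67.6 and 74.1 CPM against 72.2 and 65.5 CPM, had the most positive values of the fork genes. RFC4 was higher in both simulated microgravity libraries, while POLD1, with a log2 fold change of 0.04, overlapped.

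CDC45, part of the active helicase, was at 108 and 114 CPM under simulated microgravity and 120.3 and 107 CPM in static control (log2 fold change −0.04, SE 0.08). POLA1, the catalytic subunit of polymerase alpha, was at 105 and 116 CPM against 109 and 113 CPM, a log2 fold change of −0.01 (SE 0.07). POLE2, an accessory subunit of polymerase epsilon, was at 65.5 and 70.4 CPM against 71.2 and 69.2 CPM, a log2 fold change of −0.05 (SE 0.08). In all 3 genes the conditions overlapped and the libraries of a condition differed by more than the fold change between conditions. The 4 genes of polymerase alpha and primase had negative log2 fold changes with a median of −0.04, none with separate conditions, and the 4 GINS genes ran from −0.08 (GINS4) to 0.04 (GINS3). Over the 22 fork genes 17 log2 fold changes were negative and 5 positive, and the median was −0.04.

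POLE, the catalytic subunit of polymerase epsilon, was among the 8 members that were higher in simulated microgravity replicate 1 than in replicate 2, with the largest gap of these. It was at 192 CPM in replicate 1 and 160.0 CPM in replicate 2, against 195 and 187 CPM in static control. Replicate 1 lay between the static control libraries and replicate 2 below them, and with all 4 libraries the log2 fold change was −0.12 (SE 0.09, adjusted p 0.854 in the edgeR fit). With simulated microgravity replicate 1 left out, POLE was the 1 member that passed, at a log2 fold change of −0.25 with an adjusted p of 0.0676 in the same fit, where the lone library was assumed to vary as those of static control did. In that fit 877 of 11415 genes (7.68%) passed, against 126 with all libraries, so 1 of 44 members was below the share of all genes.

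The 3 nucleotide supply genes of the set were each lower in both simulated microgravity libraries. RRM1 and RRM2 encode the subunits of ribonucleotide reductase, which makes deoxyribonucleotides, and TYMS encodes thymidylate synthase, which makes the thymine nucleotide. RRM1 was at 306 and 321 CPM under simulated microgravity against 322 and 346 CPM in static control, RRM2 at 303 and 316 CPM against 326 and 336 CPM, and TYMS at 342 and 336 CPM against 352 and 370.0 CPM. RRM1 separated by the narrowest margin, since simulated microgravity replicate 2 and static control replicate 1 differed by less than the libraries within either condition. The log2 fold changes were −0.09, −0.10 and −0.09, each with an SE of 0.08, and the adjusted p-values in the edgeR fit were 0.904, 0.889 and 0.904. None passed, and over all genes 18.1% were lower in both simulated microgravity libraries. Of 26 other nucleotide supply genes, part of the wider list described below, 4 were lower and 4 higher in both. Their log2 fold changes were negative for 11 and positive for 15, with a median of 0.01.

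Among the G1/S regulators, E2F1 encodes the transcription factor after which the promoter motif is named, and CCNE1 and CCNE2 encode the E cyclins that activate CDK2. E2F1 was at 39.7 and 41.0 CPM under simulated microgravity and 38.3 and 38.3 CPM in static control, the most positive log2 fold change of the 44 genes at 0.07 (SE 0.08, adjusted p 0.935 in the edgeR fit). Both simulated microgravity libraries were above both static control libraries. CCNE1 was at 24.2 and 26.3 CPM against 25.6 and 24.7 CPM, a log2 fold change of 0.00 (SE 0.08), with simulated microgravity at both ends of the range. CCNE2 was at 45.9 and 50.7 CPM against 52.0 and 53.1 CPM, a log2 fold change of −0.12 (SE 0.08, adjusted p 0.822 in the edgeR fit), lower in both simulated microgravity libraries.

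Across the set, 14 of the 44 genes (31.8%) had conditions that did not overlap, against 35.9% of all genes. In 11 genes both simulated microgravity libraries were lower (ORC1, PCNA, RFC1, POLD3, GINS4, FEN1, LIG1, RRM1, RRM2, TYMS and CCNE2), and in 3 both were higher (ORC4, RFC4 and E2F1), where 18.1% of all genes were lower and 17.9% higher in both. By role, 2 of 16 licensing genes, 7 of 22 fork genes, 3 of 3 nucleotide supply genes and 2 of 3 G1/S regulators did not overlap. The larger of the differences within a condition exceeded the fold change between conditions in 37 of the 44 genes, against 76.2% of all genes.

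**Figure D2:**
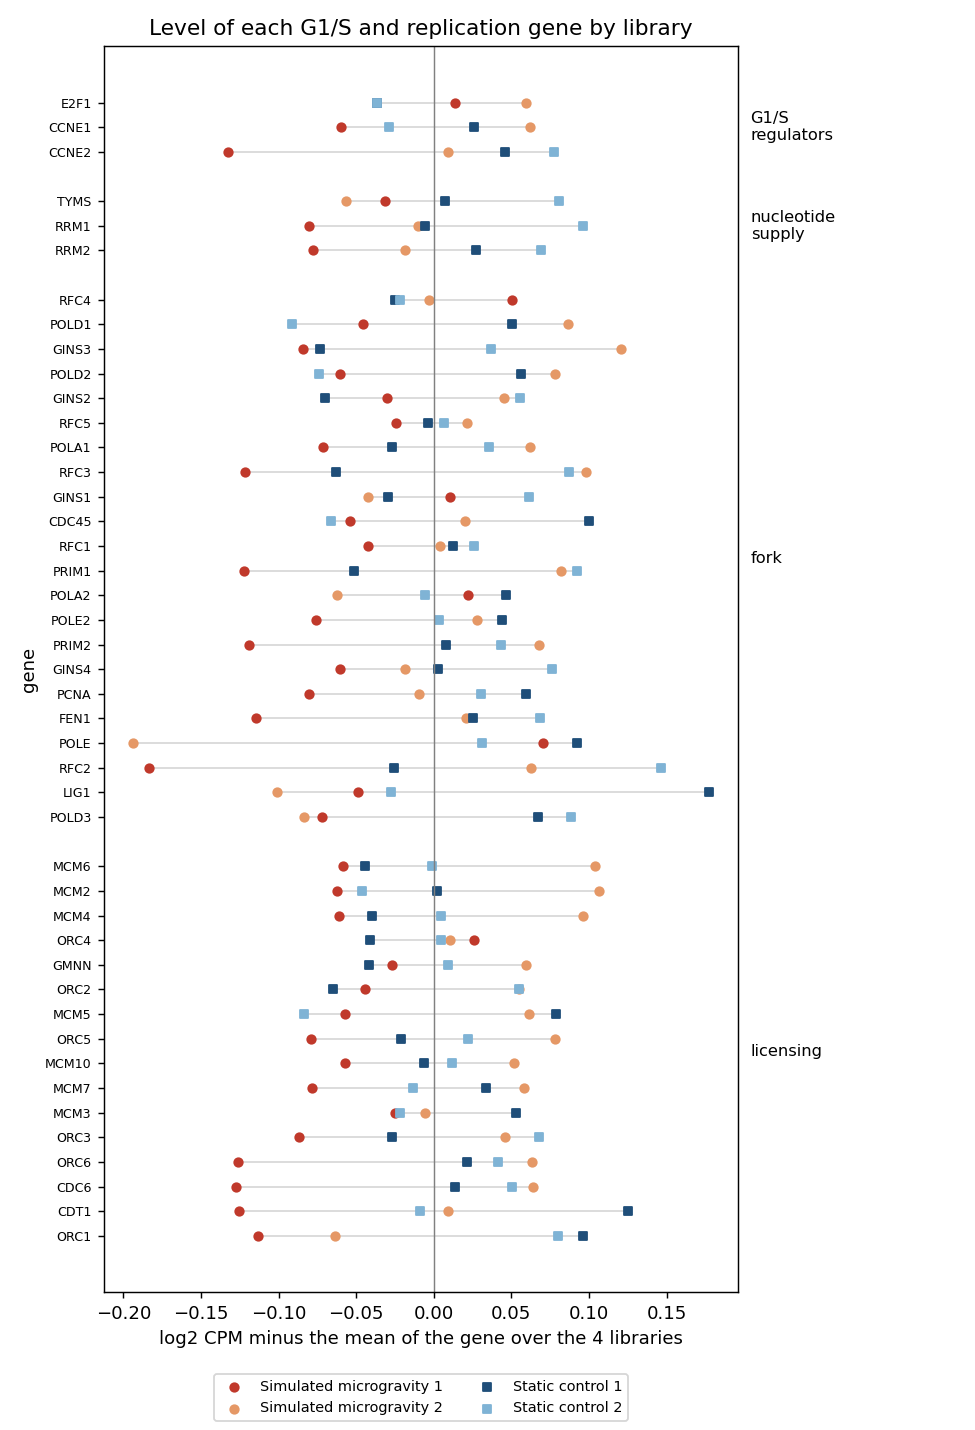
Level of each of the 44 genes in each library as log2 CPM minus the mean of that gene over the 4 libraries, by role, with simulated microgravity as circles and static control as squares. Simulated microgravity replicate 1, in dark red, lies left of replicate 2 in 36 of the 44 genes. Circles and squares do not overlap in 14 genes (31.8%), against 35.9% of all genes.

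The difference between the simulated microgravity libraries was the most common pattern in the set. Replicate 1 was below replicate 2 in 36 of the 44 genes, where 48.3% of all genes were, and the median log2 ratio of replicate 1 to replicate 2 was −0.11 over the members and 0.01 over all genes. As a median over the members, relative to the mean of each gene, simulated microgravity replicates 1 and 2 stood at −0.06 and 0.05 on the log2 scale, and static control replicates 1 and 2 at 0.01 and 0.03. In this median over all members static control thus lay between the simulated microgravity libraries, as it did for the licensing role. In the fork role the simulated microgravity libraries stood at −0.06 and 0.02, and static control at 0.01 and 0.03. In nucleotide supply they stood at −0.08 and −0.02, with both static control libraries higher, at 0.01 and 0.08. In the licensing role 15 of 16 genes were lower in replicate 1 than in replicate 2 (all but ORC4), and in the fork role 16 of 22 were. A total of 29 of the 44 log2 fold changes changed sign when some library was left out. MCM10, ORC5, POLA1 and RFC5 also did so under some alternative that kept all 4 libraries. The share of all genes that changed sign was not determined, so this count is not read as a trait of the set. The log2 fold change lay within 0.1 of 0 for 84.1% of the members and 66.6% of all genes.

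**Figure D3:**
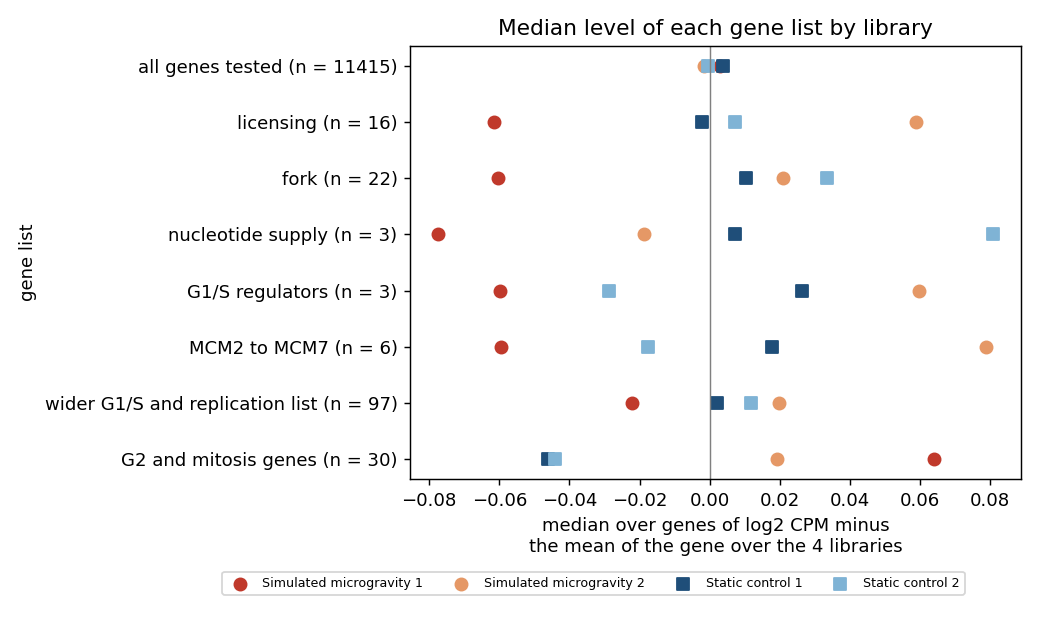
Median over the genes of each list of log2 CPM minus the mean of the gene over the 4 libraries, with 1 point per library. Static control lies between the simulated microgravity libraries for the licensing genes and for MCM2 to MCM7, and both simulated microgravity libraries lie below static control for nucleotide supply and above it for the G2 and mitosis genes.

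To compare levels between genes, CPM was divided by the length of the main GENCODE transcript of each gene, since longer transcripts give more reads. That length need not be the length of the record that was counted, and for 6 genes (RFC3, POLA2, POLD3, GINS1, GINS3 and RRM2) an end of the record lay over 5000 bases from that of the GENCODE gene, so the order of genes is approximate. On this per-length scale the mean static control level ran from 9.95 CPM per kb (GINS4) to 478 CPM per kb (PCNA). PCNA was highest, at 438 and 460.4 CPM per kb under simulated microgravity and 483 and 473 CPM per kb in static control. The lowest were GINS4 (9.28 and 9.56 against 9.70 and 10.2 CPM per kb) and CDT1 (9.32 and 10.2 against 11.1 and 10.1 CPM per kb), whose ranges overlapped. The helicase ring genes followed the order MCM7, MCM3, MCM4, MCM2, MCM5 and MCM6 in mean static control level, a 4.42-fold range, and MCM5 and MCM6 changed places in static control replicate 2 (54.4 and 54.5 CPM per kb). The 6 ORC genes spanned 2.85-fold per kb. Among the nucleotide supply genes TYMS had 224 CPM per kb in static control on average, and RRM1 and RRM2 had 106 and 102 CPM per kb.

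**Figure D4:**
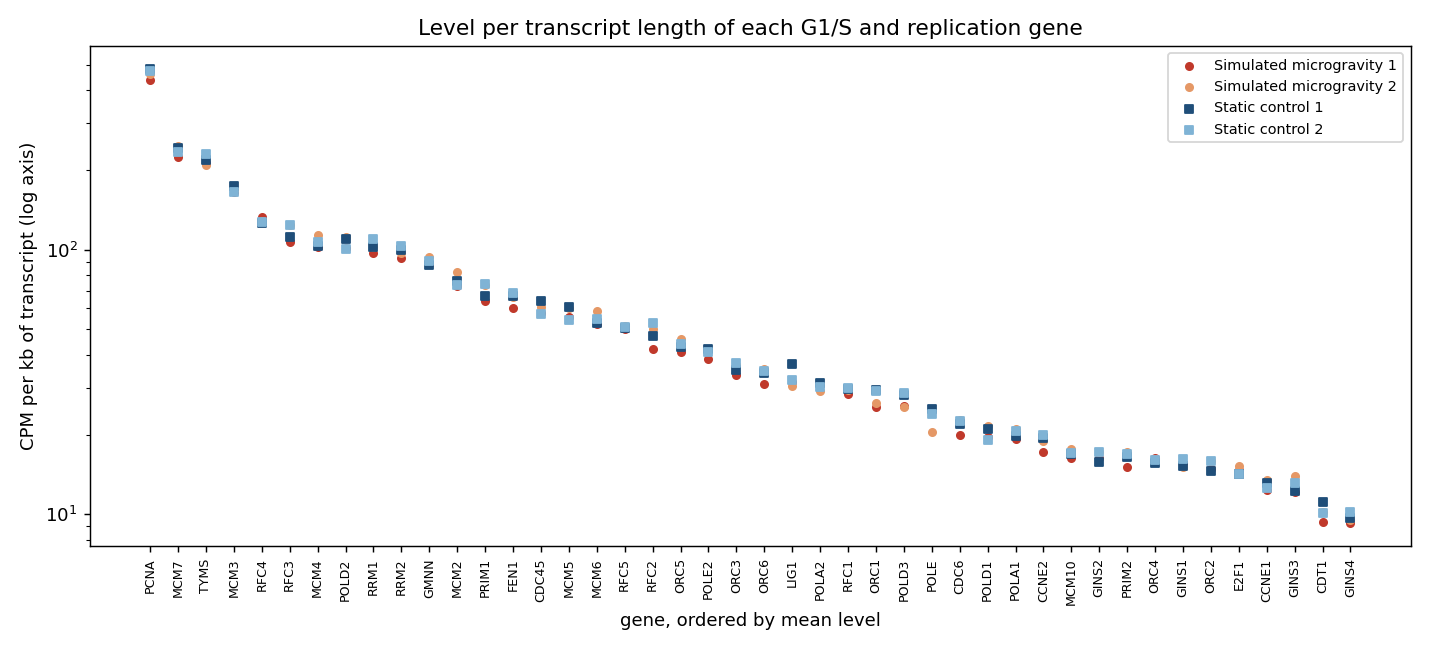
Level of each of the 44 genes in each library, as CPM per kb of the main transcript on a log axis, ordered by the mean over the 4 libraries. PCNA is highest and GINS4 lowest, and for every gene the 4 libraries lie close together against the range between genes, whose mean static control levels run from 9.95 to 478 CPM per kb.

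Some levels could include reads of other genes. Exon bases of TYMS overlapped those of ENOSF1 on the opposite strand over 60.0% of the TYMS transcript, and those of CCNE2 overlapped INTS8 on the opposite strand over 56.9%. The strand setting of the counting is not given in the sources used here, so reads of such overlapping genes cannot be told apart. In all, 5 of the 44 genes shared over 10% of their exon bases with another coding gene. The others were POLA2 (55.8%), PRIM1 (37.5%) and POLD1 (12.4%), each overlapping a gene on the same strand. PRIM1 also overlapped HSD17B6 on the opposite strand. A strand setting would not separate reads shared on the same strand. Pseudogenes bearing the name of the gene are annotated for 8 members, 3 each for PCNA and RRM2. Their sequences were not compared with those of the genes. Reads with multiple mappings had been removed, so those levels are uncertain wherever the sequences are alike. Where the table had several records for a member the log2 fold changes of its records differed by at most 0.02. When records were tested in place of genes, 0 of the 85 member records passed the FDR. The share of all records that passed is not given here.

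A wider list of 101 other genes of G1/S and replication, of which 97 were in the table, was read from the same fit. None passed the FDR in the edgeR fit, 3 had an unadjusted p under 0.05, 53 log2 fold changes were negative and 44 positive, and the median was −0.01. TK2, the mitochondrial thymidine kinase, was at 19.8 and 18.1 CPM under simulated microgravity and 23.2 and 23.0 CPM in static control (log2 fold change −0.29, SE 0.09, adjusted p 0.212 in the edgeR fit). CDKN1A, the p21 inhibitor of cyclin-dependent kinases, was at 85.1 and 66.8 CPM against 89.8 and 90.2 CPM, a log2 fold change of −0.25 (SE 0.09, adjusted p 0.422 in the edgeR fit). FBXW7, the ubiquitin ligase subunit that marks cyclin E for degradation, was at 39.7 and 33.8 CPM against 41.9 and 42.6 CPM, a log2 fold change of −0.20 (SE 0.09, adjusted p 0.552 in the edgeR fit).

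In CDKN1A and FBXW7 replicate 2 was the lower simulated microgravity library, as in POLE. Without simulated microgravity replicate 1, TK2, CDKN1A, FBXW7, ATAD5, RBL2 and DSCC1 passed in the edgeR fit, 6 of the 97 wider genes where 7.68% of all genes passed, so nothing about the list is read from this count. With any other library left out 0 passed. TK1, the cytosolic thymidine kinase for which the line is heterozygous, was at 19.7 and 19.9 CPM against 18.9 and 17.5 CPM, a log2 fold change of 0.12 (SE 0.09, adjusted p 0.854 in the edgeR fit). Of the other wider genes with the smallest p in their role, DSCC1, a subunit of an alternative clamp loader, had a log2 fold change of 0.16, DBF4, the activator of the CDC7 kinase, 0.09, RPA2, a subunit of the single-strand binding protein, −0.11, and FBXO5, an inhibitor of the anaphase-promoting complex, −0.12. ATAD5, which unloads PCNA, was at −0.14, DONSON, a replisome factor, at −0.11, PAICS, an enzyme of purine synthesis, at −0.11, and CDKN2D, an inhibitor of CDK4 and CDK6, at −0.28. CCND1, CDKN1C, CDKN2A and CDKN2B were not listed in the table.

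Genes of G2 and mitosis were read beside the set, since they are expressed later in the same cycle. All 30 were in the table and 0 passed the FDR in the edgeR fit, with 4 at an unadjusted p under 0.05 (CENPE, TTK, AURKA and BIRC5). Their median log2 fold change was 0.09, 28 were positive, and in 16 both simulated microgravity libraries were higher, where 17.9% of all genes were. CENPE, a kinetochore motor, was at 293 and 271 CPM under simulated microgravity and 228 and 234 CPM in static control (log2 fold change 0.29, SE 0.08, adjusted p 0.170 in the edgeR fit). In median level, relative to the mean of each gene, simulated microgravity replicate 1 was the highest library for these genes (0.06) and the lowest for the G1/S and replication genes (−0.06). The difference between the lists was not tested.

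Total counts over all records ranged from 112609031 to 126368530 per library, and over 1 record per gene from 57481510 to 64497288, with simulated microgravity replicate 1 lowest and replicate 2 highest in both. TMM factors lay between 0.994 and 1.01. The B cell markers of the line were present, 9 of 12 listed with summed levels of 2822 to 2990 CPM, among them MS4A1, CD74 and CD22, while HLA-DRA, BLK and CR2 were not listed. Of 10 T cell markers LAT alone was listed, at 1.43 to 2.10 CPM, and none of the CD3 genes. Of 10 myeloid markers 3 were listed (28.8 to 31.7 CPM in sum), of 9 erythroid markers EPOR alone (3.16 to 4.00 CPM), and of 10 fibroblast and epithelial markers COL1A1 and KRT8 (84.7 to 89.2 CPM in sum). The part of depth or of other cell types in the results was not tested.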

How the data were processed

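RNA of 4 libraries was extracted with RNA-STAT-60, aligned by the authors to hg19 with TopHat, cleared of reads with multiple mappings and counted per RefSeq record with Bamutils; the methods and the submitters' processing notes name different TopHat versions, the notes TopHat2 2.0.8. The authors deposited raw, unnormalized counts, 1 whole number for each record in each library. Deposited columns of CPM and of the authors' own comparison (fold changes, p-values, FDR) were not used.

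Of the 22375 records, 1 per symbol was kept (the highest mean count), giving 11415 genes. filterByExpr removed 0. The test was edgeR 4.0.16 under R 4.3.3 (TMM, quasi-likelihood test, Benjamini-Hochberg over all genes, FDR under 0.1), with no covariate. The script was tested on simulated data. Alternatives were DESeq2 1.42.0, limma 3.58.1 voom, other scalings and filters, an FDR of 0.05, records in place of genes, a replicate block and each library left out. All libraries came from the same run and lane. Libraries of a condition differed beyond sampling noise (chi-square per degree of freedom 22.4 in simulated microgravity, 19.6 in static control). Members and lists were chosen with earlier results of these data known. Members given with all values were those with an unadjusted p under 0.05, the 2 most positive and 2 most negative of each role, and textbook members of each step; POLE, GINS4, RFC2 and other genes were named after their values were seen. Lengths came from GENCODE release 44 on GRCh37, promoters from RefSeq on GRCh38.p14, and starts in the table were shifted to count from 1. Intervals are at 95%.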

Additional observations from a re-analysis of the deposited data

How the results depend on the processing

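Under 15 alternatives the 44 genes gave 660 values, of which 606 kept direction and side of the FDR, 53 changed sign without being called, 1 became a call (POLE) and 0 called values reversed. The count of members called was 0 in all alternatives but 1 and ranged from 0 to 1 with a library left out; for the wider list it was 0 and ranged from 0 to 6. The median log2 fold change of the members ran from −0.075 (without simulated microgravity replicate 2) to 0.029 (without replicate 1) with a library left out, against an SD of 0.0542 between replicates in the median of the members per library, and stayed negative under the other alternatives. Replicate numbers are shared between conditions, and the labels do not say whether same-numbered libraries were handled together. Over all genes the deviations of same-numbered libraries correlated at 0.0795, a single value that cannot decide this. With the replicate number as a block, 0 members and 0 genes of the wider list were called, the median of the members was −0.03, and 96 of all genes were called, against 126 without it. Counts of all genes called were 877 without simulated microgravity replicate 1, 212 without replicate 2, 70 without static control replicate 1 and 110 without replicate 2. The cause was not tested. There were 2 libraries per condition, the median SE was 0.08 on the log2 scale, and the smallest detectable difference was not determined. The absence of calls does not exclude changes inside the 95% intervals given above. ORC1 and POLD3 were not called although their unadjusted intervals did not hold 0.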
